A study of Homo sapiens with 18 samples.

Results

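Kinesins are motor proteins that walk along microtubules or shorten their ends. The 37 kinesin genes described here were taken from a fixed list, out of 58884 gene identifiers counted, and sorted by their known work in the cell into 12 mitotic, 14 transport, 8 ciliary and 3 other kinesins. The RNA came from T47D, a luminal breast cancer line that expresses the estrogen receptor, treated for 48 hours with niraparib or olaparib, which inhibit PARP enzymes, each at 10 μmol/L, or with the vehicle DMSO. The labels name 2 genotypes, WT (cells named T47D AAV) and PARP1 KO (cells named T47D JL), and give 3 libraries for each genotype and treatment, 18 in all. The PARP1 KO cells are a single line, and no label says that the libraries of a group came from separate cultures. The study's methods describe 3 dishes per condition for omics, without tying a library to a dish. P values therefore measure the spread between these libraries.

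During mitosis, mitotic kinesins push spindle poles apart, align chromosomes and organise the central spindle, where the cell is later cut into its daughters. Their genes belong to a set that dividing cells transcribe most strongly in the G2 phase and in mitosis, and many carry in their promoters a CHR element and CCAAT boxes, which the MuvB complexes and the factor NF-Y bind. Most transport kinesins carry vesicles, mitochondria and other cargo outward along microtubules, and several transport kinesins are known mainly from neurons. Ciliary kinesins move building blocks into the primary cilium, or control its length and its Hedgehog signaling.

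The libraries held from 28890837 to 52251288 counted reads. PARP1, the targeted gene, had 337 ± 27 CPM (counts scaled to TMM library size, mean ± SD, n = 9) in WT and 25.1 ± 1.38 CPM (n = 9) in PARP1 KO. A 2-sided exact permutation test gave P = 4.1e-05, which groups of this size cannot go below. All 8 luminal markers were counted in every library. Their sum was between 12328 and 12853 CPM with DMSO and between 8836 and 9756 CPM with niraparib and 9640 and 10057 CPM with olaparib in WT, and the part of this in the results was not tested. In PARP1 KO the sum was 13672 to 14400 CPM with DMSO, 12627 to 13000 CPM with niraparib and 11609 to 12683 CPM with olaparib. Of 10 markers of other cell types, COL1A1 had 88.3 to 153 CPM and ACTA2 35.8 to 49.2 CPM, while the others stayed below 1 CPM.

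Some libraries deviated together from the means of their own groups. Over 13526 genes, the deviations of WT niraparib replicate 2 correlated with those of WT DMSO replicate 1 at r = 0.63 and with those of PARP1 KO niraparib replicate 3 at r = 0.66, and the last 2 correlated with each other at r = 0.60. PARP1 KO olaparib replicate 3 correlated with these 3 at r = 0.44 to 0.55, and PARP1 KO DMSO replicate 1 at r = 0.44 to 0.48. KIFC2 was high in the first 3, at 126, 140 and 130 CPM, and in PARP1 KO olaparib replicate 3, at 131 CPM, beside 60.2 to 97.9 CPM in the other 14 libraries. Counts were repeated without the first 3 and without all 5, alternatives chosen after seeing the data.

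Without the first 3, 8 mitotic kinesins were called lower (adjusted P value below 0.05 and a change above 1.5-fold in edgeR) with niraparib in WT, against 6.04% of all genes, and 0 higher. Of the other kinesins 5 were called higher there, against 7.84%, and 1 lower. KIF24 (0.58) lost its call. The niraparib interaction called 10 kinesins without 3 libraries, against 7.91% of all genes, and 10 without 5, against 8.53%. In both fits 7 of them were mitotic and positive, where KIF18B (0.44 and 0.54) lost its call and KIF2C (0.64 and 0.63) gained one. Niraparib called 0 kinesins in PARP1 KO in both fits (edgeR), against 0.014% and 0.0195% of all genes. An unadjusted P value below 0.05 was found for 8 and 7 of 35 kinesins, against 1711 of 21454 and 1791 of 20553 genes. KIF14 in the olaparib interaction lost its call without 3 libraries (0.55). KIF12 between genotypes with DMSO lost it in both (-0.49 and -0.52). Calls gained without 3 libraries were those of KIF9 with olaparib in WT (-0.60), of KIF5C (0.84), KIF12 (-0.60) and KIF18B (-0.60) between the drugs in WT, and of KIF5C (1.33) and KIF12 (-0.64) between the drugs in PARP1 KO.

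The promoters are shown first because the mitotic kinesins shared letters there that the choice of members did not use. RefSeq windows of GRCh38.p14, from 250 bases before to 50 bases after the gene start, were found for 30 of the 37 kinesins. They were searched on both strands. The letters taken as the CHR element were TTTGAA. A variant searched beside it was TTCGAA. The box that NF-Y binds was searched as CCAAT. The CHR element was found in 9 of the 12 mitotic kinesins (75.0%) and in 1 of the 18 others with a window (5.56%, KIF5B), against 18.2% of 27305 genes. Counting the variant as well, it was 10 of 12 and 2 of 18, the additions being KIF22 and KIF24, against 19.5% of all genes. CCAAT was present in 10 of the 12 and in 6 of the 18, against 39.7% of all genes. In 9 mitotic kinesins, KIF22 with the variant among them, a CCAAT lay upstream of the CHR letters, with first bases 9 to 122 bases apart (median 34). The windows of 7 mitotic kinesins are printed from 100 bases before the RefSeq start to 10 bases into the gene, 5′ to 3′ on the strand of the gene. Capitals mark the CHR element and CCAAT boxes, or their reverse complement where the motif lies on the other strand.
KIF14 (chr1:200620742-200620851, minus strand): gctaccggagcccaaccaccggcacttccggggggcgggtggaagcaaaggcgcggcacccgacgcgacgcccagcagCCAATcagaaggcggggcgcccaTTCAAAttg
KIF23 (chr15:69414249-69414358, plus strand): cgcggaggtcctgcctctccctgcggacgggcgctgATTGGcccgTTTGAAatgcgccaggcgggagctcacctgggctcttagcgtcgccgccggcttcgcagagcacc
KIF4A (chrX:70290004-70290113, plus strand): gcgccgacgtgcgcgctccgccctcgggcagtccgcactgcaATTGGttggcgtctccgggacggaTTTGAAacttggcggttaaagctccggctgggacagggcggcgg
KIF20A (chr5:138179012-138179121, plus strand): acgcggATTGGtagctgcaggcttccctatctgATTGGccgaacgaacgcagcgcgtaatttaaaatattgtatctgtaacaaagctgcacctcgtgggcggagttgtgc
KIF18A (chr11:28108147-28108256, minus strand): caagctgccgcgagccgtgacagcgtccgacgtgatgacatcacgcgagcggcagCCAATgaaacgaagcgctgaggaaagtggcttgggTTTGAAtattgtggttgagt
KIF11 (chr10:92593030-92593139, plus strand): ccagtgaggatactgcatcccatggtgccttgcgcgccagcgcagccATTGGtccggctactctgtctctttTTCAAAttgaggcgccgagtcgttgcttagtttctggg
KIFC1 (chr6:33391723-33391832, plus strand): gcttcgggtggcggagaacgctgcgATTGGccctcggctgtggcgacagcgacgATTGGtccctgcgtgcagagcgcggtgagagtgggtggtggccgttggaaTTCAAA

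In KIF14 the CHR letters began 1 base after the start, in KIFC1 4 bases after it, in KIF18A 10 bases before it and in KIF11 28 bases before it. KIF20A had a pair of CCAAT boxes, 94 and 67 bases before the start, and no CHR element in its window. Its RefSeq start lies 393 bases downstream of the start of the gene in the annotation used for counting, so that both starts name different windows. For KIF24 the RefSeq start lies outside the counted gene, by 17897 bases. KIF2C had neither motif. These matches describe letters in a window and were not tested as binding sites.

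In WT cells with DMSO, the mitotic kinesins were among the most abundant kinesins per length of counted exon. Expressed as CPM per kilobase of counted exon, their levels ran from 10.5 (KIF15) to 51.5 (KIFC1), with a median of 23.3. Counted exon merges all annotated exons of a gene, 3030 bases for KIFC1 and 17720 for KIF1B, and is not the length of a transcript. Transport kinesins spread from 0.0009 (KIF1A) to 58.5 (KIF5B), with a median of 5.28, and ciliary kinesins from 0.0011 (KIF19) to 28.7 (KIF3B), with a median of 0.760. KIF5B, the kinesin-1 heavy chain of most tissues, had the highest level of all, at 58.5 ± 1.41 CPM per kilobase (SD, n = 3). It was followed by KIFC1 at 51.5 ± 1.06, KIF20A at 49.4 ± 2.53 and KIF11 at 48.0 ± 2.34. The SD range of KIF20A overlapped those of KIFC1 and KIF11, while the ranges of KIFC1 and KIF11 did not meet. All 12 mitotic kinesins had at least 1 CPM, as did 11 of the 14 transport and 6 of the 8 ciliary kinesins. KIF1A, a motor of synaptic vesicle precursors, was counted 6 times in all 18 libraries together, and KIF19, which trims cilia, 1 time, and neither could be tested. The remaining 35 kinesins were tested in each comparison.

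**Figure D1:**
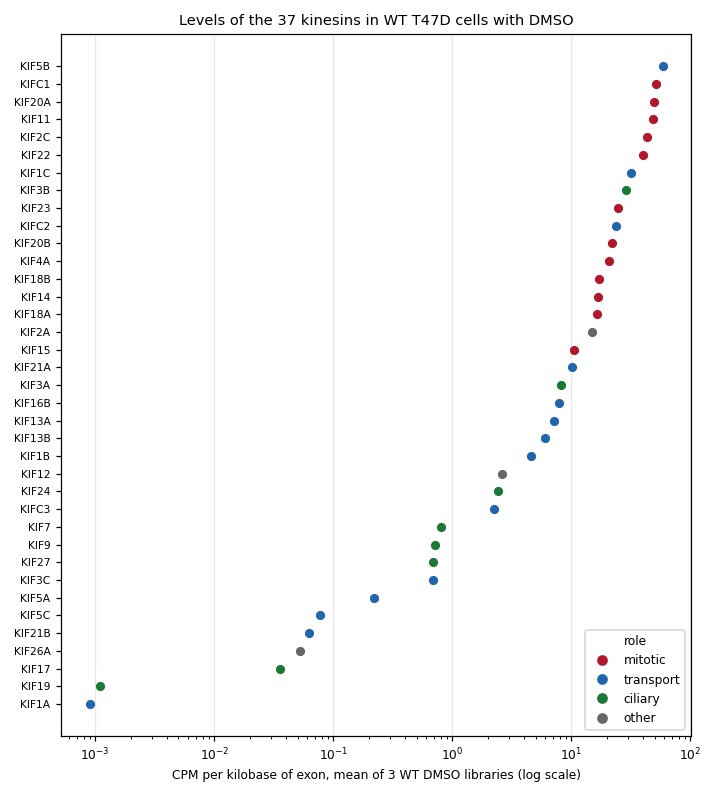
Levels of the 37 kinesins in WT T47D cells with DMSO, as CPM per kilobase of counted exon on a log scale, each point being the mean of 3 libraries, coloured by role. The 12 mitotic kinesins lie between 10.5 and 51.5, while transport and ciliary kinesins spread over the whole range, and KIF1A and KIF19 at the bottom rest on at most 1 count per library.

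The first comparison asks what niraparib did to kinesin transcripts in WT cells. Every mitotic kinesin had a lower mean level with niraparib than with DMSO, while transport and ciliary kinesins moved in both directions. A gene was called when its adjusted P value in edgeR's quasi-likelihood test was below 0.05 and its change above 1.5-fold. Of the 12 mitotic kinesins, 8 were called lower and 0 higher, against 5.72% of all 22446 genes called lower, 8.10% called higher and 13.8% called in either direction. With the adjusted P value alone all 12 were lower, against 18.1% of all genes. Their median log2 fold change was -0.66, against -0.02 for all genes tested. Of the 20 transport and ciliary kinesins tested, 5 were called higher and 0 lower, with a median of 0.13. The difference between these role groups was not tested as such. In a bulk sample, fewer cells in G2 or mitosis and less RNA per cell cannot be told apart.

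KIF20A, which brings the chromosomal passenger complex to the central spindle before cytokinesis, changed most. The gene is at chr5:138178719-138187723 (GRCh38, plus strand). In WT it was counted at 179, 198 and 193 CPM with DMSO, at 26.3, 21.5 and 23.7 CPM with niraparib and at 116, 113 and 114 CPM with olaparib. The 3 treatments did not overlap, with olaparib in between. Its log2 fold change with niraparib was -3.00 (edgeR, SE 0.065, adjusted P = 9.2e-18), an 8.01-fold lower level. In PARP1 KO it had 175, 171 and 171 CPM with DMSO, 149, 152 and 140 with niraparib and 173, 153 and 149 with olaparib, all above every drug-treated WT library.

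KIF14, which works at the central spindle and midbody with citron kinase, came next. Its place is chr1:200551497-200620751 (GRCh38, minus strand). WT libraries had 131, 119 and 117 CPM with DMSO, 33.6, 30.9 and 32.4 CPM with niraparib and 83.7, 85.0 and 85.7 CPM with olaparib. Again the 3 treatments were separate and in the same order. The change with niraparib was -1.92 on the log2 scale (edgeR, SE 0.055, adjusted P = 2.8e-16), or 3.79-fold lower. PARP1 KO libraries had 104 to 111 CPM with DMSO, 88.2 to 108 with niraparib and 103 to 119 with olaparib, which overlapped.

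The other motors of the central spindle and cytokinesis moved less. KIF23 is the motor subunit of centralspindlin, the complex that bundles midzone microtubules together with RACGAP1. It had 150, 172 and 164 CPM with DMSO, 103, 104 and 100 CPM with niraparib and 140, 145 and 141 CPM with olaparib in WT, a log2 fold change of -0.67 with niraparib (edgeR, SE 0.051, adjusted P = 7.5e-10). RACGAP1 fell alongside by 0.65. KIF20B, which acts late in cytokinesis, had 146, 156 and 149 CPM with DMSO and 97.6, 90.9 and 99.1 CPM with niraparib, a change of -0.65 (edgeR, adjusted P = 1.1e-09). With olaparib it had 118, 126 and 116 CPM. KIF4A, a chromokinesin that sets the length of the midzone overlap, changed by -0.50 (edgeR, adjusted P = 6.4e-08), below 1.5-fold. KIF4B, its near-identical copy without introns, had from 6 to 31 counts per library, at most 0.848% of those of KIF4A, and reads shared by the copies could lie with either.

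Among the motors that position chromosomes, KIF18A, a kinesin-8 that dampens chromosome oscillations, was counted at 75.6, 71.6 and 74.3 CPM with DMSO and at 38.9, 40.3 and 41.4 CPM with niraparib in WT. That is a log2 fold change of -0.88 (edgeR, SE 0.050, adjusted P = 9.3e-12), and olaparib libraries lay between, at 59.1, 56.4 and 58.5 CPM. KIF18B, its relative on astral microtubules, had 92.4, 73.2 and 73.6 CPM with DMSO and 49.0, 54.0 and 46.3 CPM with niraparib. Its change of -0.68 (edgeR, adjusted P = 3.7e-05) was -0.56, and so below 1.5-fold, without WT DMSO replicate 1, the highest of the 3. KIF2C, or MCAK, which removes faulty kinetochore attachments by depolymerizing microtubules, had 147, 164 and 162 CPM with DMSO, 109, 99.2 and 102 CPM with niraparib and 147, 143 and 144 CPM with olaparib. Its value against DMSO was -0.61 (edgeR, adjusted P = 4.9e-09), and -0.58, below 1.5-fold and so not called, without WT DMSO replicate 2. KIF22, a chromokinesin that pushes chromosome arms, changed by -0.33 (edgeR, adjusted P = 2.9e-06), below 1.5-fold.

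KIF11, KIF15 and KIFC1 shape the bipolar spindle. KIFC1, a minus end-directed motor that focuses spindle poles and clusters extra centrosomes in cancer cells, was counted at 153, 160 and 155 CPM with DMSO, 97.3, 83.8 and 92.6 CPM with niraparib and 160, 155 and 161 CPM with olaparib in WT. Niraparib lowered it by 0.78 on the log2 scale (edgeR, SE 0.053, adjusted P = 1.5e-10), and the olaparib libraries overlapped those with DMSO. KIF11, or Eg5, which slides the poles apart, changed by -0.56 (edgeR, adjusted P = 3.6e-09), below 1.5-fold. Without WT DMSO replicate 1 its change was -0.60, past 1.5-fold. KIF15, which can take over from KIF11, changed least of the 12, at -0.16 (edgeR, adjusted P = 0.045). Its WT libraries overlapped, with 49.1 to 59.3 CPM with DMSO and 48.7 to 51.2 CPM with niraparib. TPX2, which binds both KIF11 and KIF15 at the spindle, fell by 0.40 (edgeR, adjusted P = 8.3e-07).

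**Figure D2:**
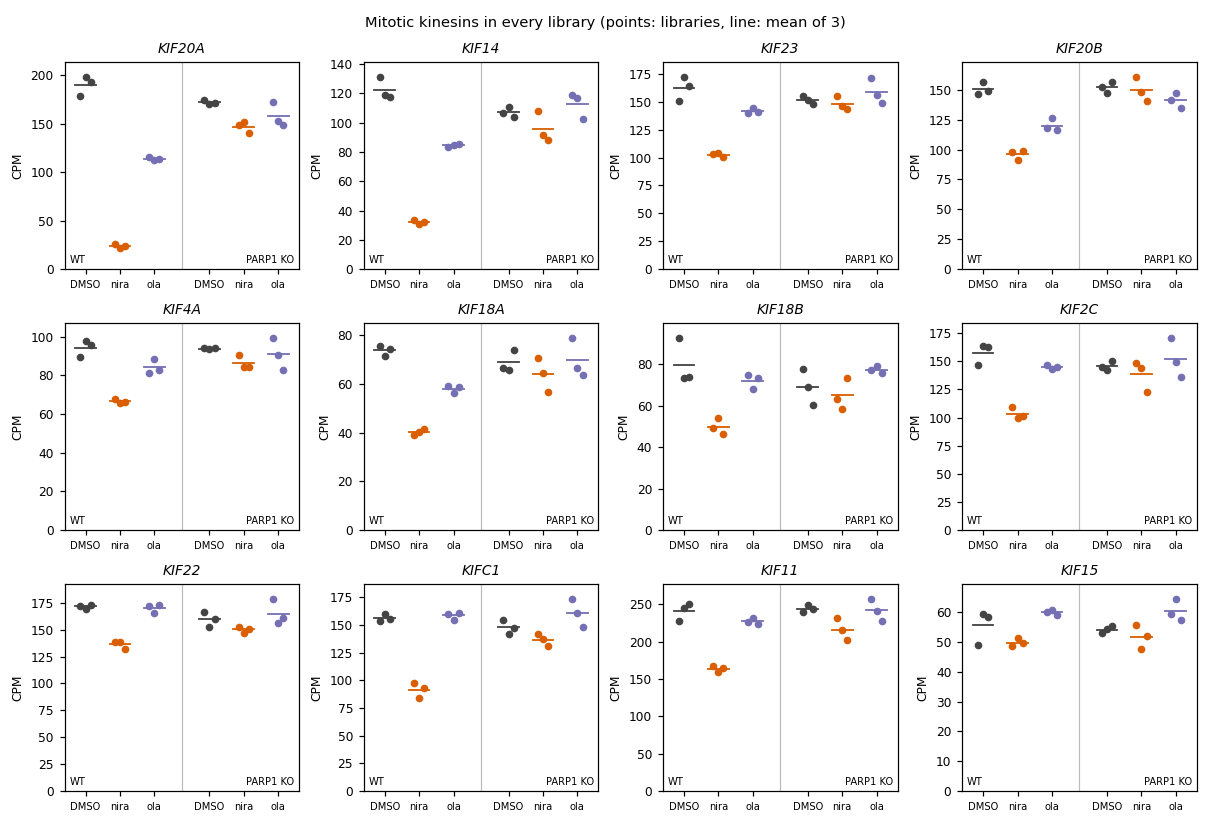
CPM of the 12 mitotic kinesins in every library, with WT on the left and PARP1 KO on the right of each panel, the points being libraries and the line the mean of 3. In WT, niraparib lies lowest in every panel by its mean, KIF20A dropping from 179 to 198 CPM with DMSO to 21.5 to 26.3 CPM. In PARP1 KO no mitotic kinesin was called between treatments.

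Genes that work with these motors moved the same way. Of 32 mitotic partners, 25 were called lower with niraparib in WT, against 5.72% of all genes, and 1 higher, against 8.10%, with a median log2 fold change of -1.02. The largest changes were those of PLK1, the kinase that docks on KIF20A (-2.46), of CCNB1 and CCNA2, cyclins of mitosis and of S to G2 phase (-2.19 and -1.77), and of the checkpoint kinase BUB1 (-1.89), with adjusted P values from 2.8e-16 to 1.4e-14 (edgeR). CENPE, itself a kinesin of the kinetochore that stands in this list and not among the 37, had 92.9, 92.4 and 90.9 CPM with DMSO and 42.7, 39.9 and 42.4 CPM with niraparib, a change of -1.14 (edgeR, adjusted P = 2.5e-13). The partner called higher was MYBL2, at 0.65 (edgeR, adjusted P = 2.6e-10), named here after its value was seen. MYBL2 is a transcription factor that joins MuvB at CHR elements.

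**Figure D3:**
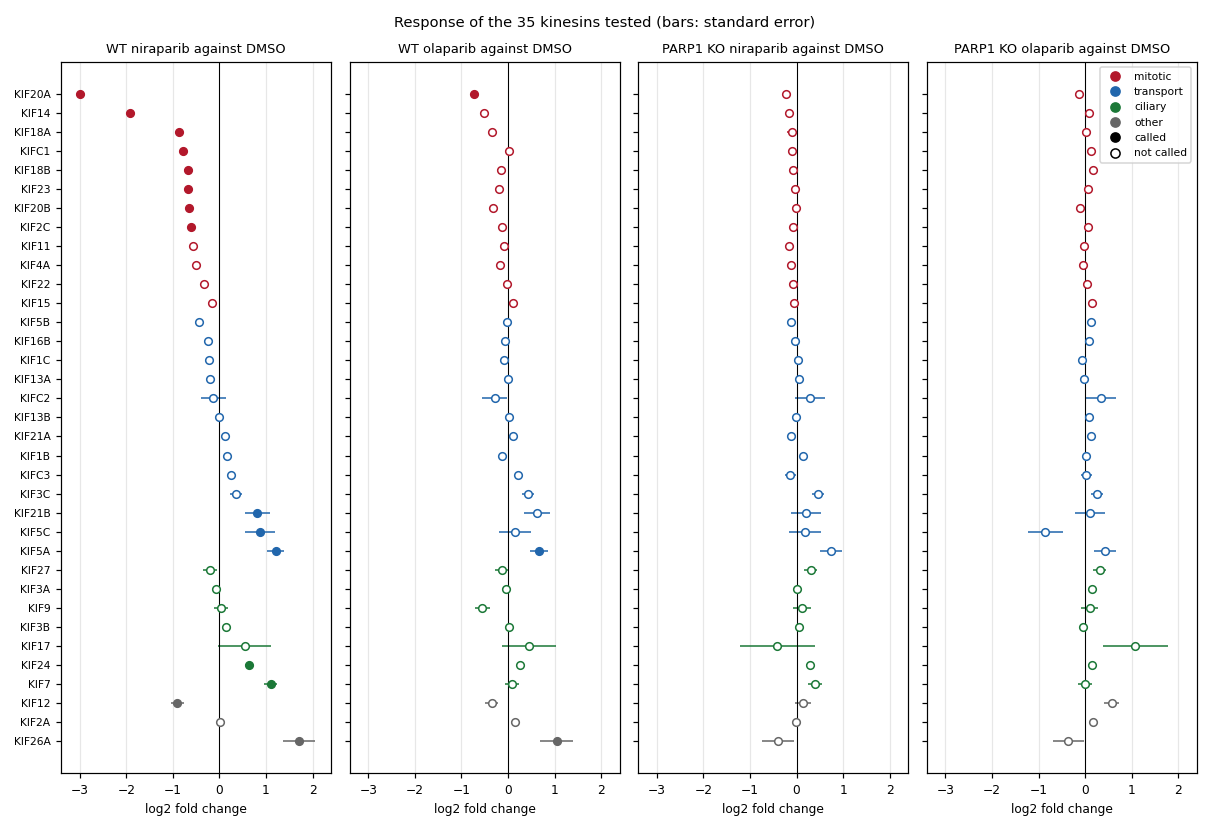
Log2 fold change of the 35 kinesins tested, with standard error, for niraparib and olaparib against DMSO in WT and in PARP1 KO, filled points being called. The mitotic kinesins run from -3.00 to -0.16 with niraparib in WT and from -0.23 to -0.02 in PARP1 KO, where no kinesin was called.

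Among the 13 transport kinesins tested, 3 were called higher with niraparib in WT, against 8.10% of all genes. All 3 had low levels and are known from neurons, and KIF5C and KIF21B lost the call without single libraries. KIF5A, a kinesin-1 heavy chain, had 1.23, 1.26 and 1.57 CPM with DMSO (37, 65 and 63 counts) and 3.24, 3.30 and 2.86 CPM with niraparib (109, 183 and 116 counts). It rose by 1.21 on the log2 scale (edgeR, SE 0.18, adjusted P = 1.5e-05), and the groups did not overlap. KIF5C, another kinesin-1 heavy chain, had 0.433, 1.14 and 0.573 CPM with DMSO and 1.79, 1.13 and 1.21 CPM with niraparib, which overlapped. Its change of 0.87 had an adjusted P of 0.039 (edgeR), and of 0.19, 0.13 and 0.14 without WT niraparib replicate 1, WT DMSO replicate 1 and WT DMSO replicate 3, at log2 fold changes of 0.64, 0.63 and 0.71. KIF21B, which restrains microtubule growth in neurons and T cells, had 0.800, 0.737 and 0.748 CPM with DMSO and 1.55, 0.901 and 1.63 CPM with niraparib. Its change was 0.82 (edgeR, adjusted P = 0.021). It was 0.71, 0.66, 0.80 and 0.80 without WT niraparib replicates 1 or 3 or WT DMSO replicates 2 or 3, with adjusted P values from 0.057 to 0.11 (edgeR). The neuronal markers SNAP25, RBFOX3 and STMN2 together reached at most 0.089 CPM in any group.

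KIF5B, the abundant kinesin-1 heavy chain, went the other way from KIF5A. It had 349, 348 and 334 CPM with DMSO, 259, 248 and 249 CPM with niraparib and 344, 337 and 331 CPM with olaparib in WT. All niraparib libraries were below all others, and the change of -0.45 (edgeR, SE 0.045, adjusted P = 5.2e-08) was smaller than 1.5-fold. Of the 13 transport kinesins tested, 4 had an adjusted P value below 0.05 in the downward direction, against 18.1% of all genes, and 6 in the upward direction, against 19.9%. Besides KIF5B the lower ones were KIF1C (-0.23) and KIF13A (-0.19), both kinesin-3 motors, and KIF16B (-0.25), which moves early endosomes. The smaller rises were those of KIF3C (0.36), a kinesin-2 subunit, KIFC3 (0.24) and KIF1B (0.17), a kinesin-3 carrier of mitochondria and synaptic vesicle precursors. KIF21A, KIF13B and KIFC2 changed by 0.12, -0.00 and -0.14. KIFC2 varied widely between libraries of a group, from 60.2 to 97.9 CPM in PARP1 KO DMSO and from 86.8 to 140 CPM in WT DMSO. Of the exon bases of KIF1B, 1.65% are shared with another gene on the same strand, where reads were not counted.

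Light chains and adaptors couple kinesin-1 and its relatives to cargo. Of 19 such genes tested, 4 were called higher with niraparib in WT, against 8.10% of all genes, and 0 lower, against 5.72%, with a median of 0.29. They were MAPK8IP2 (1.56) and MAPK8IP1 (1.25), both JIP scaffolds, the light chain KLC3 (1.03) and GRIP1 (0.74). Cytoplasmic dynein and dynactin, the motor complex of the opposite direction, had a median of -0.00 over 21 genes. Of these 0 were called (edgeR), against 13.8% of all genes, and 1 was called by DESeq2. With the adjusted P value alone 7 were higher, against 19.9% of all genes, and 5 lower, against 18.1%. An unadjusted P value below 0.05 (edgeR) was found for 13, against 10053 of 22446 genes.

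In the ciliary group, niraparib raised KIF7 and KIF24 in WT. KIF7, which organises the tip of the cilium in Hedgehog signaling, had 3.13, 4.54 and 4.44 CPM with DMSO, 8.09, 9.31 and 8.79 CPM with niraparib and 3.68, 4.23 and 5.11 CPM with olaparib. Niraparib stood apart from both other groups, at a log2 fold change of 1.10 (edgeR, SE 0.14, adjusted P = 2.0e-06). KIF24, a kinesin-13 at the mother centriole that holds back cilium formation, had 15.2, 14.7 and 14.6 CPM with DMSO, 22.5, 25.3 and 21.1 CPM with niraparib and 18, 17.1 and 18.2 CPM with olaparib. Its change of 0.64 (edgeR, adjusted P = 7.2e-07) was 0.55, below 1.5-fold, without WT niraparib replicate 2. KIF3A and KIF3B, the motor subunits of heterotrimeric kinesin-2, the anterograde motor of intraflagellar transport, changed by -0.06 and 0.13. KIF3B, the most abundant ciliary kinesin, had 171, 179 and 177 CPM with DMSO, 198, 184 and 195 with niraparib and 178, 178 and 175 with olaparib, and KIFAP3, their non-motor subunit, changed by -0.03 (edgeR, adjusted P = 0.76). KIF9, KIF17 and KIF27 changed by 0.04, 0.54 and -0.20, of which KIF17 rested on at most 14 counts per library. Of 21 intraflagellar transport genes, CLUAP1 was called higher (0.68) and TTC21B lower (-0.64), against 13.8% of all genes called in either direction, with a median of 0.08.

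Of the 3 remaining kinesins, KIF26A, a kinesin without motor activity, had 0.433, 0.252 and 0.374 CPM with DMSO (13, 13 and 15 counts) and 1.25, 1.21 and 0.938 CPM with niraparib (42, 67 and 38 counts) in WT. It rose by 1.71 on the log2 scale (edgeR, SE 0.34, adjusted P = 3.5e-04). KIF12 had 9.94, 6.26 and 7.55 CPM with DMSO and 3.81, 4.47 and 4.27 CPM with niraparib, a log2 fold change of -0.90 (edgeR, SE 0.14, adjusted P = 2.5e-05). For both genes the groups did not overlap. KIF2A, a microtubule depolymerase of neurons and of spindle poles, had 72.2, 70.9 and 70.8 CPM with DMSO and 72.3, 72.7 and 70.4 CPM with niraparib, a change of 0.01 (edgeR, SE 0.047, adjusted P = 0.89). Its exon bases are shared with IPO11 on the same strand to 8.97%.

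**Figure D4:**
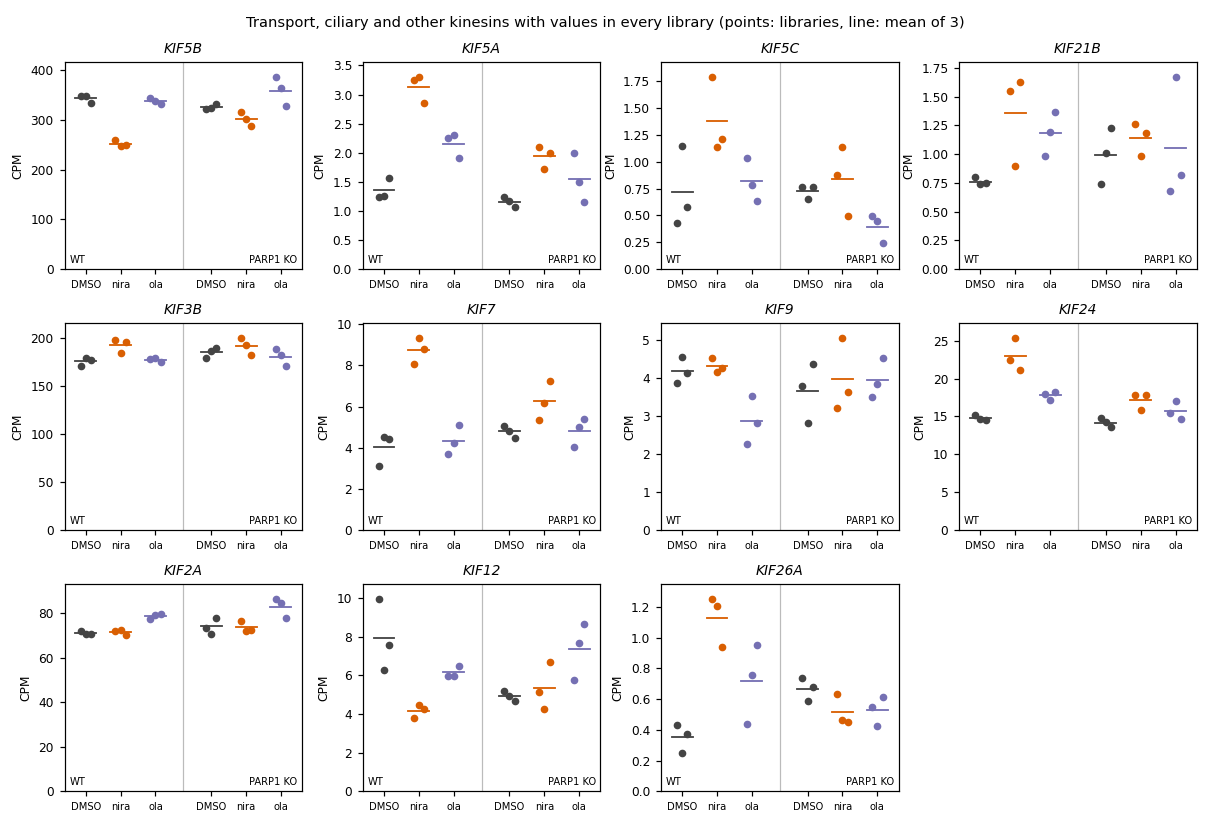
CPM of the transport, ciliary and other kinesins that were called in some comparison or are the most abundant of their role group, in every library, with points for libraries and lines for the mean of 3. KIF5A, KIF7 and KIF26A are higher with niraparib in WT than in any DMSO library, while KIF5B and KIF12 are lower.

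Olaparib at the same dose and time called 3 kinesins in WT, against 4.04% of all genes. KIF20A was the mitotic kinesin called lower, at -0.73 (edgeR, SE 0.059, adjusted P = 2.5e-08), where 1.98% of all genes were called lower. With the adjusted P value alone 6 mitotic kinesins were lower, against 7.77% of all genes. They were KIF20A, KIF14 (-0.52), KIF18A (-0.34), KIF20B (-0.32), KIF23 (-0.19) and KIF4A (-0.16), and the median of the 12 was -0.15. KIF5A and KIF26A were called higher, against 2.06% of all genes. KIF5A had 2.25, 2.30 and 1.91 CPM with olaparib, a change of 0.67 (edgeR, adjusted P = 0.015), and of 0.63, 0.62 and 0.62 without WT olaparib replicate 1, WT olaparib replicate 2 or WT DMSO replicate 2, with adjusted P values of 0.064, 0.059 and 0.063. KIF26A had 0.441, 0.758 and 0.953 CPM, a change of 1.04 (edgeR, adjusted P = 0.048), which was not called with DESeq2 (adjusted P = 0.051), with the replicate number as a block (0.078) or without WT olaparib replicate 2 or 3 or WT DMSO replicate 2 or 3 (0.99, 0.80, 0.82 and 1.11, adjusted P from 0.087 to 0.21, edgeR). Smaller differences past the adjusted P value were those of KIF3C (0.44), KIFC3 (0.21), KIF24 (0.27), KIF2A (0.15) and KIF9 (-0.55). KIF9 was past 1.5-fold without WT olaparib replicate 2 (-0.73) or WT DMSO replicate 1 (-0.60). The niraparib and olaparib comparisons share the 3 DMSO libraries.

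Compared directly in WT, the drugs differed in 5 kinesins, against 8.95% of all genes. KIF20A (-2.27), KIF14 (-1.40) and KIFC1 (-0.80) were lower with niraparib than with olaparib, against 3.33% of all genes, with adjusted P values from 2.1e-15 to 2.2e-10 (edgeR). With the adjusted P value alone all 12 mitotic kinesins were lower with niraparib, against 16.2% of all genes, and their median was -0.48. KIF7 (1.01, adjusted P = 9.3e-06, edgeR) and KIF9 (0.59, adjusted P = 0.0072, edgeR), a motor of motile cilia, were higher with niraparib, against 5.62% of all genes. KIF9 had 4.52, 4.16 and 4.27 CPM with niraparib and 2.25, 3.52 and 2.83 CPM with olaparib, beside 3.87, 4.56 and 4.14 CPM with DMSO, so that the olaparib libraries were the low ones. This difference was 0.44 without WT olaparib replicate 1 (edgeR, adjusted P = 0.062), 0.58 without WT olaparib replicate 3 and 0.55 without WT niraparib replicate 1, below the thresholds. KIF12 (-0.61) and KIF18B (-0.60) were called lower without WT niraparib replicate 2, and KIF5A (0.60) higher without WT niraparib replicate 3.

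In PARP1 KO cells, niraparib called 0 of the 35 kinesins tested with edgeR, against 0.0136% of all 22037 genes, and DESeq2 called 0. An unadjusted P value below 0.05 (edgeR) was found for 9 kinesins, against 2014 of all genes. All 12 mitotic kinesins had negative log2 fold changes, from -0.23 (KIF20A) to -0.02 (KIF20B), with a median of -0.10. The lowest adjusted P value among them was that of KIF20A, 0.12 with edgeR and 0.041 with DESeq2 (log2 fold change -0.22), and its niraparib libraries (140 to 152 CPM) lay below those with DMSO (171 to 175 CPM). KIF5A, called in WT, had 1.23, 1.18 and 1.06 CPM with DMSO and 2.10, 1.72 and 1.99 CPM with niraparib, which did not overlap, and a change of 0.75 (edgeR, adjusted P = 0.28). With olaparib 0 kinesins were called in PARP1 KO (edgeR), against 0.803% of all genes, and DESeq2 called 0. Of the kinesins 10 had an unadjusted P value below 0.05 (edgeR), against 4640 of all 22037 genes. KIF12 had 5.20, 4.93 and 4.65 CPM with DMSO and 5.77, 7.67 and 8.65 CPM with olaparib, a change of 0.57 (edgeR, adjusted P = 0.033), just under 1.5-fold, and of 0.72 without PARP1 KO olaparib replicate 1. Between the drugs 0 kinesins were called in PARP1 KO (edgeR), against 1.07% of all genes, and DESeq2 called 0. Unadjusted, 14 kinesins were below 0.05, against 4877 of all 22037 genes. With the adjusted P value alone 3 of the 12 mitotic kinesins were lower with niraparib, against 1263 of all genes, and 0 higher. Of the 12, 11 had negative values, with a median of -0.13 over all 12. Without PARP1 KO niraparib replicate 3, KIF5C (1.33) and KIF12 (-0.64) were called there, and without PARP1 KO olaparib replicate 1 KIF12 (-0.59).

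The difference between genotypes in the response to a drug was itself tested, as an interaction over all 18 libraries, where a positive value means a higher level with drug in PARP1 KO than the WT response would give. For niraparib 10 kinesins were called, against 8.88% of all 24675 genes. Of the 12 mitotic kinesins 7 were called with a positive value, against 3.68% of all genes, and 11 had an adjusted P value below 0.05 in that direction, against 10.4%. KIF20A had the largest value, 2.77 (edgeR, SE 0.084, adjusted P = 1.1e-23), then KIF14 with 1.76, KIF18A with 0.77, KIFC1 with 0.66, KIF23 and KIF20B with 0.63 each and KIF18B with 0.59, with adjusted P values up to 0.010. KIF15 was the member without a difference past the threshold, at 0.09 (edgeR, adjusted P = 0.53). The median over the 12 was 0.61, against 0.03 for all genes tested, and of the 32 mitotic partners 24 were called with a positive value, against 3.68% of all genes, and 1, MYBL2 (-0.62), with a negative value, against 5.20%. KIF2C, at 0.54, was at 0.62 and 0.59, past 1.5-fold, without PARP1 KO niraparib replicate 3 or WT DMSO replicate 1. KIF20B was at 0.57 and 0.58 without PARP1 KO niraparib replicate 1 or WT niraparib replicate 2, below 1.5-fold. KIF18B was at 0.49, 0.50, 0.55, 0.52 and 0.47 without PARP1 KO niraparib replicate 3, PARP1 KO DMSO replicate 3, WT niraparib replicate 1, WT niraparib replicate 3 or WT DMSO replicate 1.

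Outside the mitotic group, KIF12 was called with a positive interaction (1.03, adjusted P = 0.0012, edgeR), and KIF7 (-0.71, adjusted P = 0.0088) and KIF26A (-2.11, adjusted P = 9.8e-04) with negative ones, against 5.20% of all genes. KIF7 was at -0.57, below 1.5-fold, without WT DMSO replicate 1, and KIF27 was called at 0.62 without WT DMSO replicate 2. KIF7 in PARP1 KO had 5.07, 4.83 and 4.49 CPM with DMSO and 5.33, 6.18 and 7.24 CPM with niraparib. KIF26A there had 0.739, 0.588 and 0.680 CPM with DMSO and 0.631, 0.461 and 0.450 CPM with niraparib. For KIF5A the interaction was -0.46 (edgeR, SE 0.29, adjusted P = 0.29), and its responses in WT and PARP1 KO were not shown to differ.

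For olaparib the interaction called 3 kinesins, against 0.657% of all genes, all with positive values, where 0.276% of all genes were called. KIF20A was at 0.61 (edgeR, adjusted P = 1.1e-05), KIF14 at 0.60 (edgeR, adjusted P = 1.2e-04) and KIF12 at 0.93 (edgeR, adjusted P = 0.025). Each of the 3 lost its call in some fits with 1 library removed. KIF20A was at 0.55 and 0.58 without PARP1 KO olaparib replicate 1 or WT DMSO replicate 2. KIF14 was at 0.56, 0.58, 0.58 and 0.55 without PARP1 KO olaparib replicate 1 or 2, PARP1 KO DMSO replicate 3 or WT DMSO replicate 1. KIF12 had adjusted P values from 0.056 to 0.080 in 8 of 12 fits with 1 library removed. With DMSO alone, KIF12 was the kinesin that differed between the genotypes, lower in PARP1 KO by 0.67 (edgeR, adjusted P = 0.032), against 0.146% of all genes called and 0.0851% called lower. It was called in 1 of the 6 fits without 1 library, and its log2 difference was -0.48 (edgeR, adjusted P = 0.26) without WT DMSO replicate 1, its highest library. With the replicate number as a block the difference was -0.84 (edgeR, adjusted P = 0.083), not called.

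Set against the mean of the WT DMSO libraries, the median log2 difference of the 12 mitotic kinesins was -0.66 to -0.64 in the 3 WT niraparib libraries and -0.16 to -0.15 in the WT olaparib libraries. In PARP1 KO it was -0.14 to -0.05 with DMSO, -0.22 to -0.07 with niraparib and -0.14 to 0.08 with olaparib. For transport kinesins the same median lay between -0.03 and 0.13 in all 18 libraries, and for ciliary kinesins between -0.08 and 0.14.

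**Figure D5:**
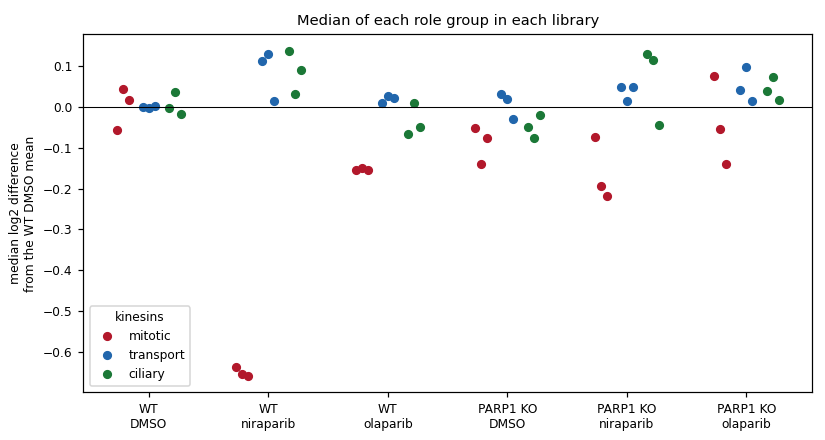
Median log2 difference from the WT DMSO mean over the mitotic, transport and ciliary kinesins with a mean of at least 1 CPM, 1 point per library. The 3 WT niraparib libraries lie at -0.66 to -0.64 for mitotic kinesins, below the other 15 libraries, while transport and ciliary medians stay between -0.08 and 0.14.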

How the data were processed

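PolyA RNA of 18 libraries had been sequenced. The authors trimmed reads with Trimmomatic, aligned them with STAR, marked duplicates with Picard and deposited raw read counts per gene from featureCounts 2.0.0, with the Ensembl 96 annotation of GRCh38 and reverse strand; whether duplicates were removed is not given in the sources used here. Reads lying in overlapping genes of a strand were not counted. Total counts per library were 28890837 to 52251288.

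Counts were tested in R 4.3.3 with edgeR 4.0.16 (quasi-likelihood, robust, TMM scaling, genes with over 10 counts in total) and Benjamini-Hochberg adjustment over all genes. WT and PARP1 KO were fitted apart with 9 libraries each, and interactions and the DMSO comparison of genotypes over 18. Values per library are CPM over TMM-scaled library sizes. Each SE was obtained by dividing the size of the change (log2) by the root of F. DESeq2 1.42.0, another scaling, other filters, a replicate block and leaving out each library were tried. Genes with values in every library were those called in any comparison and the most abundant of each role group. Of other lists, up to 4 called genes per comparison were named, beside TPX2, RACGAP1, KIFAP3 and CENPE, set by name, and MYBL2, named after its value was seen. Members and lists were chosen with earlier results of these data known. Promoter windows came from RefSeq (GRCh38.p14), matched by symbol, per gene over any window. The fits were tested on simulated data.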

Additional observations from a re-analysis of the deposited data

Results flagged for a closer look

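The response to niraparib differed between WT and PARP1 KO for 10 kinesins by the interaction test of edgeR, against 8.88% of all genes. The log2 difference of responses, PARP1 KO minus WT, was 2.77 for KIF20A, 1.76 for KIF14, 0.77 for KIF18A, 0.66 for KIFC1, 0.63 for KIF23, 0.63 for KIF20B, 0.59 for KIF18B and 1.03 for KIF12. It was -0.71 for KIF7 and -2.11 for KIF26A. KIF18B lost its call in 5 of 12 fits with 1 library removed and without the libraries of shared deviations, KIF20B in 2 of 12 and KIF7 in 1 of 12. For KIF26A, WT libraries rose from at most 15 counts with DMSO to at least 38 with niraparib, and the low counts limit its precision.

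The response to olaparib differed for 3 kinesins, against 0.657% of all genes, by 0.61 for KIF20A, 0.60 for KIF14 and 0.93 for KIF12. They lost their calls in 2, 4 and 8 of 12 fits with 1 library removed, and KIF14 also without the 3 libraries of shared deviations. These interactions share the DMSO libraries with those of niraparib.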

How the results depend on the processing

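Counts of kinesins called kept within 1.5 times under another scaling (RLE), filterByExpr, no filter, one fit of all 18 libraries and DESeq2. With the adjusted P value alone, 27 kinesins in place of 15 passed for niraparib in WT, against 8530 of 22446 genes. For olaparib in WT it was 13 in place of 3, against 4270 genes, and between the drugs 23 in place of 5, against 7232. In PARP1 KO 1 and 5 in place of 0 passed for olaparib and between the drugs, against 1827 and 2203 of 22037 genes. For the niraparib interaction it was 21 in place of 10, against 5661 of 24675 genes. With an absolute log2 fold change above 1.5, the size used in the study's methods, they were 3 for niraparib in WT, 0 for olaparib, 1 between the drugs, 3 and 0 for the niraparib and olaparib interactions and 0 between genotypes. Leaving out 1 library gave 13 to 14, 1 to 4 and 4 to 7 in WT, 0, 0 to 1 and 0 to 2 in PARP1 KO, 9 to 11 and 1 to 3 for the interactions and 0 to 1 between genotypes. The 3 libraries of shared deviations were left out after seeing the data. Then 8 kinesins were called between the drugs in WT, against 9.73% of all genes, and 2 between them in PARP1 KO, against 1.29%. Between genotypes it was 0, against 0.0506% of all genes, and also 0 without 5, against 0.168%. Of 2489 values compared for the 19 kinesins described by library, 56 lost and 19 gained a call, and 0 called values changed sign. With KIF2A and KIF24 counted as mitotic, 9 mitotic kinesins were called for niraparib in WT. Of these 8 were lower, against 5.72% of all genes, and 1, KIF24, was higher, against 8.10%. Of the other kinesins 6 were called, 5 higher and 1 lower. The replicate numbers did not pair the libraries: of 18 same-numbered pairs, 5 had deviations correlated above 0.1. With the replicate block, 0 kinesins differed between genotypes, against 19 of 24675 genes. For olaparib in WT 2 were called with it, against 812 of 22446 genes. Few counts limit KIF5A, KIF5C, KIF21B, KIF26A and KIF17.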
